A study of Mus musculus with 8 samples.

Results

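The RNA of 4 genes whose proteins bind EPOP was measured in the mouse embryonic tail bud: Eloa, Elob and Eloc, which encode elongin A, B and C, and Usp7, which encodes a deubiquitinase. They were chosen by symbol, and all 4 had a line in the deposited table of 26171 genes. EPOP is itself an accessory subunit of PRC2, the Polycomb complex that methylates histone H3 at silenced genes. The samples were posterior tail buds with their presomitic mesoderm, from mice of embryonic day 8.5 that had 4 to 5 somites. By genotype label, 4 libraries were Epop knockout (KO) and 4 were wild-type (WT). The labels do not describe the KO allele or the strain, and no treatment was given.

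Elongin B is a ubiquitin-like protein and elongin C a small protein related to SKP1, and together they form a stable pair. That pair serves as an adaptor in 2 settings. It joins elongin A to make the elongin complex, which stimulates elongation by RNA polymerase II. It also joins substrate receptors such as VHL and the SOCS proteins to CUL2 or CUL5 in ubiquitin ligases. EPOP binds the elongin B and C pair and thereby links it to PRC2. USP7 removes ubiquitin from proteins such as MDM2, p53 and DNMT1, and also associates with EPOP.

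The value columns of the table carry no names, so no column could be tied to a sample or to a genotype. KO was therefore not compared with WT, and the only test run was Dixon's for an outlying library. The values below describe the 8 libraries as one set, in which both genotypes are present by label. Epop RNA did not check those labels: it lay between 16.3 and 28.3 RPKM over the 8 libraries, and none was near 0. The libraries are numbered 1 to 8 by their place in the table, which stands here for no genotype. No replicate error within a genotype can be given, and the spread over the 8 libraries includes any effect of genotype.

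Whole reads could be recovered from the values of 20724 of the 20726 genes above 0, taking the smallest gene length that made all 8 whole. They summed to between 44248365 reads in library 1 and 54338334 in library 4. All 12 markers of tail bud and presomitic mesoderm, among them T, Tbx6 and Cdx2, had an RPKM of at least 1 in every library. RPKM is reads scaled for gene length and by a depth divisor for each library. All 5 head and forebrain markers were below 1 in every library. Markers of other tissues varied between libraries. The summed RPKM of the 3 extraembryonic markers Afp, Ttr and Apoa1 was lowest in library 2, at 645, and highest in library 6, at 2634. The 4 primitive blood markers summed to 5.30 in library 2 and 918 in library 1, the lowest and the highest of the 8. The 12 tail bud markers summed to 603 in library 6, the lowest, and 1102 in library 4, the highest.

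The upstream sequences of Elob and Eloa are shown because these 2 genes, whose products act in one complex, lay far apart in RNA level. RefSeq's promoter table (build GRCm38.p6) matched 3 of the 4 genes, Eloa, Elob and Usp7. The Usp7 window lies wholly inside the GENCODE M21 gene and was not used. The stretches run 5′ to 3′ on the gene's strand and end where the GENCODE M21 gene begins. Capitals mark matches on either strand to the YY1 core AAGATGGC, the ETS core CCGGAAG or the SP1 GC box GGGCGG. The Elob stretch of 223 bases is chr17:23829137-23829359, minus strand, and the Eloa stretch of 136 bases is chr4:136021764-136021899, minus strand.
Elob: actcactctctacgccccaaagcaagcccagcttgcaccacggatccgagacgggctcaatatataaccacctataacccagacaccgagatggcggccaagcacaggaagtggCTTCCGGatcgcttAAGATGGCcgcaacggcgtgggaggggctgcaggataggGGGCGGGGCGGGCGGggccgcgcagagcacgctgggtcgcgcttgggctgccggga
Eloa: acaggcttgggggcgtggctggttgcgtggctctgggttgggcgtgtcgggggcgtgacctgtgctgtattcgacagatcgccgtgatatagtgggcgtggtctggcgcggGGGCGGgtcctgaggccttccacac

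Motif counts were made in the 250 bases before the RefSeq start, part of which is not printed. The unprinted part of each window lies inside the GENCODE M21 gene. It holds the Eloa ETS match, an Eloa GC box and an Elob GC box. The YY1 core occurred once for Elob and not for Eloa, and 1.56% of 32851 such windows hold it. The ETS core occurred once each for Elob and Eloa, against 6.91% of all windows. The GC box occurred 4 times for Elob, with overlaps between neighbours, and 2 times for Eloa, and 32.7% of windows hold it. The CCAAT box (CCAAT), held by 33.8% of windows, the TATA box TATAAA, held by 12.4%, and the E-box CACGTG, held by 6.02%, had no match in either window. Elob had 27 CpG dinucleotides in its window and Eloa had 28, against a median of 6 over all windows.

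All 4 genes were expressed in every library, and Elob stood highest. Elob, the ubiquitin-like subunit, had its lowest RPKM of 605 in library 5, a median of 630 and its highest of 697 in library 8. Its median exceeded that of 99.0% of the 10899 genes with a median RPKM of at least 1, and ranked 113 in the table. Behind these values lay 14669 to 19849 reads a library. The authors' length for Elob, recovered from the read steps, was 508 bases. In GENCODE M21, Elob (ENSMUSG00000055839.6) lies on chromosome 17 from 23824738 to 23829136, on the minus strand, with 8 transcripts. Its near-identical relative Elobl was above 0 in 2 libraries and reached 0.0299 RPKM at most. How reads that fit both genes were counted is not given in the sources used here.

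Eloc, the SKP1-like subunit and partner of elongin B, held the most even level of the 4. Its RPKM ran between 51.7 in library 4 and 56.9 in library 6, with a median of 56.0. This median was above 88.1% of expressed genes. The range of Eloc was clear of that of every other member. It rested on 5672 to 6955 reads a library and a length of 2189 bases. Eloc (ENSMUSG00000079658.9) lies on chromosome 1 from 16641725 to 16657042, on the minus strand, with 11 transcripts.

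Eloa, the subunit with the elongation activity, was near the middle of expressed genes and varied most of the 4. Its RPKM was lowest in library 3, at 6.98, and highest in library 6, at 10.3, with a median of 9.08, above 53.5% of expressed genes. The next values inside these were 7.87 in library 4 and 9.69 in library 8. Neither end passed the limit of Dixon's test for an outlying library, taken over the 8 libraries of both genotypes together. The reads numbered 1589 to 2492 a library over 4592 bases. Library 6 also had the highest extraembryonic marker sum and the lowest tail bud marker sum, and the part of these in its Eloa level was not tested. In bulk tissue, fewer cells of a type and less RNA per cell cannot be told apart. Eloa (ENSMUSG00000028668.5) lies on chromosome 4 from 136003368 to 136021763, on the minus strand, with 1 transcript. The antisense gene Gm13008 overlaps it, and whether counting used strand is not given in the sources used here.

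Usp7 was the lowest member by median. Its RPKM was 6.22 at its lowest, in library 2, 7.34 at the median and 8.30 at its highest, in library 3. The median was above 47.9% of expressed genes. Library 4, at 6.26, lay beside library 2 at the low end, and library 7, at 7.72, came second highest. The reads numbered 1571 to 2258 a library over 5427 bases. Usp7 (ENSMUSG00000022710.17) lies on chromosome 16 from 8689595 to 8792308, on the minus strand, with 13 transcripts.

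**Figure D1:**
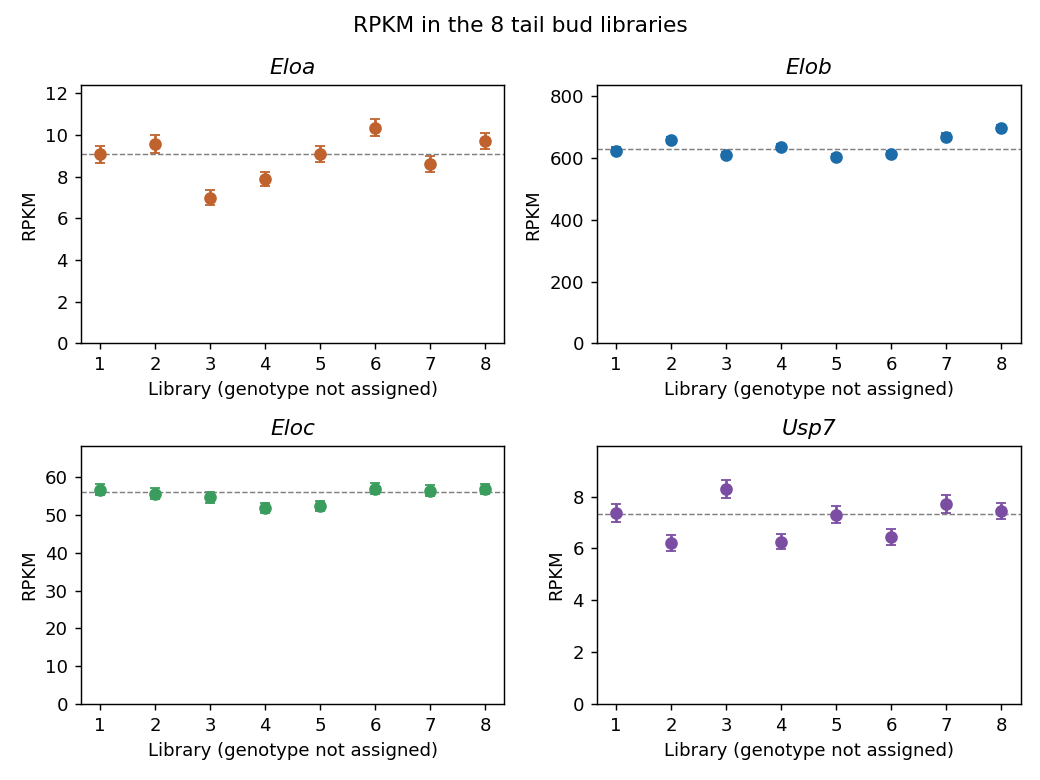
RPKM (y axes, from 0) of each gene in libraries 1 to 8 (x axes); points are library values, bars are exact 95% Poisson intervals from the recovered reads, and dashed lines are medians. Eloc lies between 51.7 and 56.9 RPKM throughout, while Eloa runs between 6.98 in library 3 and 10.3 in library 6.

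At the authors' lengths the order of the 4 genes was Elob, Eloc, Eloa and Usp7 in 7 libraries, and Usp7 stood above Eloa in library 3. The ranges of Eloa and Usp7 overlapped, so there these neighbours in the order were not separated beyond their spread. RPKM is per length, so the authors' choice of gene length enters the comparison between genes. With the merged exon length of GENCODE M21, which is 1398 bases for Elob, the medians became 229 RPKM for Elob, 40.5 for Eloc, 8.85 for Eloa and 5.13 for Usp7. This alternative was chosen after seeing the data, and it kept the order of the medians. Under it Usp7, at 4.34 to 5.80 RPKM, no longer overlapped Eloa, at 6.81 to 10.1 RPKM, and Eloa stood above Usp7 in library 3 as well.

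**Figure D2:**
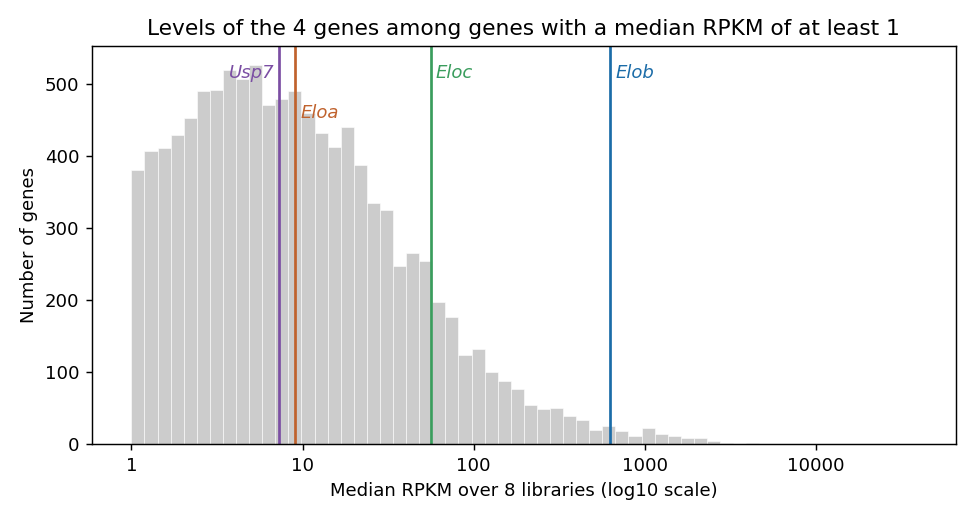
Histogram of the median RPKM over 8 libraries (x axis, log10 scale) of the 10899 genes with a median of at least 1, as number of genes (y axis); vertical lines mark the 4 genes. Usp7 (7.34) and Eloa (9.08) sit near the centre, Eloc (56.0) in the upper part and Elob (630) in the far upper tail.

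The width of each gene's range limits what the ratio of genotype means could be in these libraries. A ratio of 2 group means cannot exceed the ratio of the highest to the lowest library. Highest over lowest RPKM was 1.10 for Eloc, with an exact 95% counting interval of 1.06 to 1.14. For Elob it was 1.15, with an interval of 1.13 to 1.18. Usp7 gave 1.34, with an interval of 1.25 to 1.43, and Eloa gave 1.48, with an interval of 1.39 to 1.58. Whichever libraries are KO, the ratio of KO to WT mean RPKM was thus at most these values, in either direction. With 4 libraries in each genotype, the largest possible ratio of means is smaller than these values, and it was not computed. The limit holds for the means of these libraries only. The intervals come from the reads of the 2 extreme libraries alone, treat them as chosen in advance, and cover counting error only. Among the 10059 genes with an RPKM of at least 1 in all libraries, the median ratio was 1.38. A narrower range than that of Eloc was found for 1.22% of these genes, and for Elob the share was 6.90%. For Usp7 it was 42.1% and for Eloa 62.7%. Ranges narrow with level: the median ratio was 1.39 over 2911 genes of 5 to 15 RPKM, 1.24 over 1519 genes of 30 to 100 RPKM and 1.17 over 206 genes of 300 to 1200 RPKM.

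Ratios taken within a library do not depend on its size. Elongin B RNA exceeded elongin C RNA in all 8 libraries: the Elob to Eloc ratio of RPKM was 10.8 at its lowest, in library 6, 11.7 at the median and 12.3 at its highest, in library 8. The libraries thus differed by 1.14-fold in this ratio. It also rests on the short length of 508 bases, and with the merged exon length the median ratio was 5.87. Elongin A RNA was scarce beside its partner: the Eloa to Eloc ratio ran between 0.128 in library 3 and 0.182 in library 6, with a median of 0.165. The Usp7 to Eloc ratio was 0.112 in library 2 and 0.152 in library 3, the lowest and the highest, with a median of 0.130.

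The widest contrast was between Eloa and Usp7. Their ratio was lowest in library 3, at 0.841, and highest in library 6, at 1.60, with a median of 1.25. It exceeded 1 in 7 libraries at the authors' lengths, in all 8 with merged exon lengths, where the lowest was 1.17, and in 6 with the longest protein-coding transcript. Library 3 was lowest and library 6 highest under each. Library 3 combined the lowest Eloa with the highest Usp7, and library 6 combined the highest Eloa with a Usp7 value of 6.44 RPKM, below the Usp7 median. Highest and lowest differed by 1.91-fold, more than for either gene alone.

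**Figure D3:**
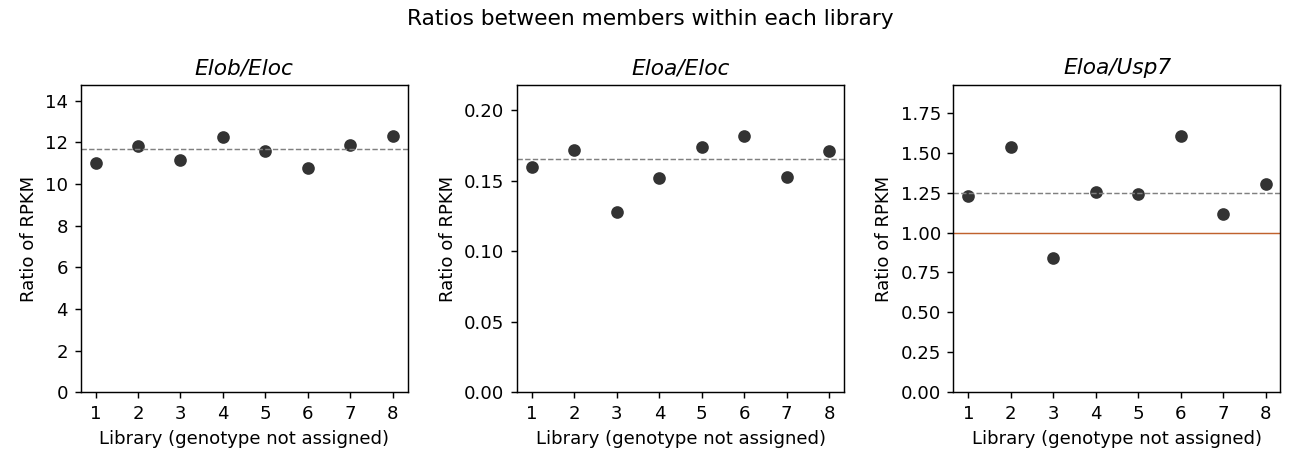
Ratios of RPKM (y axes, from 0) between members in libraries 1 to 8 (x axes); dashed lines are medians and the solid line marks a ratio of 1. Elob/Eloc stays between 10.8 and 12.3, whereas Eloa/Usp7 spans 0.841 in library 3 to 1.60 in library 6.

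Genes whose pattern was most like each member were taken as those with the steadiest ratio to it, by the standard deviation (SD) of the log2 ratio over the 8 libraries. For Eloc these were Ube2k, an E2 ubiquitin-conjugating enzyme, with an SD of 0.03, Ipo4, a nuclear import receptor, at 0.03, and C1qbp, a mitochondrial matrix protein, at 0.03. The median over all genes was 0.17. For Elob they included Rps19, a ribosomal protein gene, at 0.03 and Rps18-ps4 at 0.03, against a median of 0.17. For Eloa they were Bet1l, a vesicle SNARE gene, at 0.05, the endosomal GTPase gene Rab5b at 0.06 and the deacetylase gene Hdac6 at 0.07, against a median of 0.24. For Usp7 they were Cnot6, a deadenylase gene, at 0.06, Caap1 at 0.07 and Zfp639 at 0.07, against a median of 0.23. Among the members, Elob and Eloc were the closest pair, with an SD of 0.07, and these also had the narrowest ranges. By steadiness of the ratio over all genes, Eloc ranked only 447 for Elob, and Elob ranked 545 for Eloc. Eloa and Usp7 were the least alike, with an SD of 0.29. The genes named as most like each member are the extremes of 10059 genes over 8 libraries that share the same scaling. All these SD values are a description only.

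Elongin B and C also serve ubiquitin ligases, and most of the 22 ligase genes listed here were expressed. The list was chosen with earlier results of these data known, and does not stand for all such ligase genes. Of the 22, 20 had an RPKM of at least 1 in all libraries, or 90.9%, against 38.4% of all genes in the table. Their median level was 8.83 RPKM. Rbx1, the RING subunit that works with CUL2, was the highest at 147 to 164 RPKM, with a median of 151. Cish, a member of the SOCS family, was the lowest of the 20, at 1.09 to 1.85 RPKM. Socs2, a feedback inhibitor of growth hormone signalling, had the widest range, a ratio of 2.43 between 6.96 RPKM in library 8 and 2.86 in library 6. Socs7 reached 1 in 6 libraries and Zer1, a receptor for proteins with an N-terminal glycine, in none. Every one of the 22 had a median below that of Elob, and 4 had a median above that of Eloc: Rbx1, Rnf7 (110 RPKM), Klhdc3 (78.3 RPKM) and Klhdc2 (60.9 RPKM).

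Most genes of a list for elongation by RNA polymerase II, the step that elongin A stimulates, were present as well. This list too was chosen with earlier results of these data known. Of its 21 genes, 19 had an RPKM of at least 1 in all libraries, or 90.5%, against 38.4% of all genes. The median level of the 19 was 11.8 RPKM. Ssrp1, a subunit of the histone chaperone FACT, was the highest at 87.3 to 104 RPKM. Cdc73, of the PAF1 complex, was the lowest of the 19 at 1.27 to 1.84 RPKM. Cdk9, the kinase of the elongation factor P-TEFb, had the widest range, from 6.70 RPKM in library 2 up to 13.7 in library 3, a ratio of 2.04. Ell2, of the super elongation complex, reached 1 RPKM in 2 libraries, and its partner Aff1 did so in 1 library. Eloa, with a median of 9.08 RPKM, lay below Polr2a (16.9 RPKM), the largest subunit of the polymerase, and above Ell (5.06 RPKM), another factor that stimulates elongation.

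All 13 listed partners and substrates of USP7 had an RPKM of at least 1 in every library, against 38.4% of all genes. Their median level was 11.4 RPKM. Trp53, which encodes p53, was the highest at 147 to 211 RPKM. The median of Usp7 lay below those of Mdm2 (12.4 RPKM), the ubiquitin ligase for p53, Dnmt1 (27.2 RPKM), the maintenance DNA methyltransferase, and its partner Uhrf1 (99.0 RPKM). No gene of this list had a highest over lowest ratio above 2.

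All 7 genes of the PRC2 list passed the same level, against 38.4% of all genes. Epop itself ran between 16.3 RPKM in library 2 and 28.3 in library 5, with a median of 24.6. That is below the Eloc range and above the Eloa and Usp7 ranges in all 8 libraries. Rbbp7, a histone-binding subunit, was the highest of the list at 225 to 284 RPKM, and Ezh1, the alternative methyltransferase to EZH2, was the lowest at 2.56 to 3.41.

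Among genes named Usp with a number, Usp7 was of middle rank. These were taken by symbol alone, Usp6nl included, and not by enzyme activity. The table held 56 of them, of which 39 had an RPKM of at least 1 in all libraries. That is 69.6%, against 38.4% of all genes. The median of these 39 was 7.39 RPKM, beside 7.34 for Usp7. Usp7 ranked 21 of the 56. Of the 20 genes above it, 13 had a range clear of that of Usp7. These began with Usp10 (57.6 RPKM), which acts on p53, Usp5 (55.5 RPKM), which takes apart free ubiquitin chains, Usp39 (53.5 RPKM), a splicing factor, and Usp22 (45.3 RPKM), which acts on histone H2B in the SAGA complex. The other genes clear above it were Usp21, Usp14, Usp4, Usp1, Usp16, Usp8, Usp47, Usp19 and Usp48, with medians of 33.8 RPKM for Usp21 down to 12.0 RPKM for Usp48. Usp46, Usp36, Usp38, Usp3, Usp11, Usp37 and Usp33 had higher medians but overlapped it. Usp9x and Usp15 overlapped it from below. The lowest of the 39 was Usp24, with a median of 1.26 RPKM, and Usp51 had the widest range, a ratio of 2.19.

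**Figure D4:**
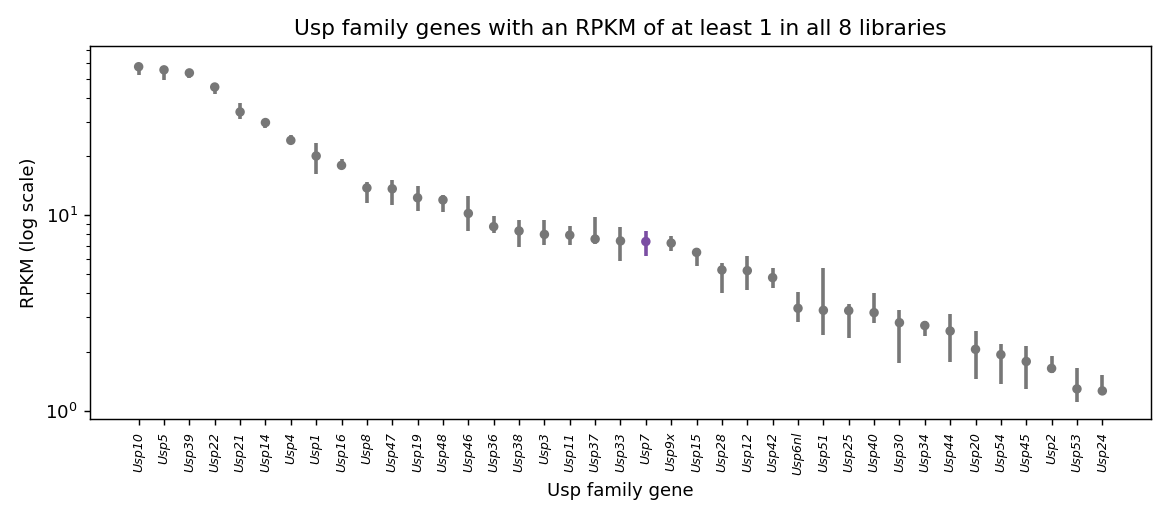
RPKM (y axis, log scale) of the 39 genes named Usp with a number (x axis, by median) with at least 1 RPKM in all libraries; points are medians, bars run from the lowest to the highest of 8 libraries, and Usp7 is in colour. Usp10 is highest at a median of 57.6, and Usp7 at 7.34 lies among neighbours whose bars overlap its own.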

How the data were processed

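Per the labels' protocols, RNA was extracted with an RNeasy kit and made into Smart-seq2 libraries. The authors deposited RPKM values in 1 table without a header line. TopHat, DESeq2 and the build mm10 stand in the submitters' processing notes, without versions or roles. No source used here names the annotation or the read counter.

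The name of the table lists 8 labels, which match the 8 sample titles. Its 8 value columns were therefore taken as those libraries, but 0 had names, and none was assigned to a sample or genotype by order or value. No limma fit was made.

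RPKM steps gave the reads per gene, called whole within 0.0002. Median-of-ratios size factors of the deposited RPKM were equal in all 8 columns, so the values were already on that scale. The recovered divisors behind the RPKM ran from 46253028 to 56033097. In library 3 the divisor, 49547084, was below the 52246547 recovered gene reads, so the divisors are not called library sizes here. Recovery was tested on simulated data. Whether reads or read pairs were counted is not stated.

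Genes counted as expressed at a median RPKM of at least 1. Partner genes were counted at 1 in all libraries. Named genes were the members, the highest, lowest and widest genes (ratio above 2) of each list, the 3 steadiest ratios to each member, and the Usp genes above Usp7. A few items that this rule names are not reported here. Other genes were named after their values were seen. Members and lists were chosen with earlier results of these data known. Python 3.11.15, pandas 2.3.3 and SciPy 1.17.1 were used.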

Additional observations from a re-analysis of the deposited data

How the results depend on the processing

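Of 222 alternative values over 21 results, 198 moved by less than a set limit. The limits were the spread between libraries, the counting interval for ranges and 1.5-fold for list counts. Most of the 222 were leave-one-out values, which change little by construction, and 4 of them moved. Every change of the gene set behind a percentile moved it, and so did most changes of gene length. The count of 198 is thus no measure of robustness. Median-of-ratios scaling divided all libraries by one common factor, which left each highest over lowest ratio as it was and gave medians of 9.03 for Eloa, 626 for Elob, 55.7 for Eloc and 7.30 for Usp7. Scaling to equal column totals, run for the 4 medians and the 4 highest over lowest ratios, moved none of them beyond these limits.

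Counted among all genes above 0 in any library, the percentiles were 75.5 for Eloa, 99.5 for Elob, 93.7 for Eloc and 72.6 for Usp7. Among genes with a median of at least 5 RPKM they were 24.4, 98.3, 80.6 and 15.3 for the same genes. At 5 RPKM in all libraries, 13 elongin B/C ligase genes and 23 Usp genes reached the level. Both changes of gene length were chosen after seeing the data. With merged exon lengths the medians were 229 for Elob, 40.5 for Eloc and 5.13 for Usp7, and the ratios were 5.87 for Elob/Eloc, 0.223 for Eloa/Eloc and 1.75 for Eloa/Usp7. With the longest protein-coding transcript the medians were 596 for Elob, 60.9 for Eloc and 8.39 for Usp7, and Elob/Eloc was 10.2.

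Leaving out each library in turn gave highest over lowest ratios of 1.31 to 1.48 for Eloa, 1.11 to 1.15 for Elob, 1.09 to 1.10 for Eloc and 1.24 to 1.34 for Usp7. The lowest value for Eloa, 1.31, came without library 3. No paired analysis was possible because the columns carry no names, and the 2 genotypes share only 1 number, 11, in their titles. Depth did not limit these genes, which had at least 1571 reads in every library.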

Other observations

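The divisors of the deposited RPKM had a geometric mean of 50464076, beside 50139215 for the recovered gene reads of the 8 libraries. Recovered totals and these divisors differed within libraries, with 52246547 reads against 49547084 in library 3 and 44248365 against 46253028 in library 1.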
